A study of Mus musculus with 9 samples.

Results

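The comparison of ischaemia-reperfusion (IR) with sham surgery in mouse liver was described here across gene families and pathways. It rests on 6 of the 9 libraries of the series, 3 from sham livers and 3 from IR livers. FPKM are fragment counts corrected for transcript length and sequencing depth, and the genes that averaged 1 FPKM or more across all 9 libraries were kept, 9649 of the 11229 in the table. Immediate early genes and acute phase genes were set aside as 2 lists and left out of every family below. All mice were C57BL/6 and 8 weeks old, and the label of each library names liver tissue. Sham mice had sham surgery, IR mice had the hepatic blood supply interrupted and then restored, and the remaining 3 libraries came from mice with ischaemic postconditioning (IPO), whose restored flow was briefly interrupted again. The IPO libraries entered the fit for the estimate of the spread and are not described. How long ischaemia lasted and when livers were taken are not in the labels. Nothing there says that replicates were separate animals either, so p-values reflect variation between libraries that could be technical alone.

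Hepatic IR injury follows from oxygen loss and then from the return of blood, with oxidative stress, activation of stress kinases and entry of leukocytes. Hepatocytes make up most of the liver's mass and carry its plasma protein synthesis, lipid and drug metabolism, while sinusoidal endothelial, Kupffer and stellate cells line and support the sinusoids. Ribosome production, in which ribosomal RNA is transcribed by RNA polymerase I in the nucleolus, processed and joined with ribosomal proteins, is among the costliest activities of a growing or secreting cell.

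Hepatocyte markers, checked against the liver label, were abundant in every library. The 7 of them summed to 17027, 16467 and 23138 FPKM in sham and 28955, 24706 and 20914 in IR, and no member passed the test. In bulk RNA, fewer cells of a type cannot be told apart from less RNA per cell. Kupffer cell markers summed to 172, 190 and 133 FPKM in sham and 219, 147 and 547 in IR, and IR replicate 3 stood highest. T and NK cell markers, at 2.33, 1.24 and 1.81 FPKM in sham and 0.915, 1.11 and 21 in IR, and erythroid markers, at 809, 362 and 469 FPKM in sham and 579, 629 and 1196 in IR, were also highest in IR replicate 3. Neutrophil markers summed to 71.5, 56.1 and 81.7 FPKM in sham and 9.79, 35.7 and 64.8 in IR, so that IR replicate 1 was lowest and the groups overlapped. By exact permutation these summed levels gave two-sided p of 0.3 for Kupffer, 1.00 for T and NK, 0.4 for erythroid and 0.2 for neutrophil markers, where 0.1 is the smallest p that 3 against 3 allows.

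Of the 9649 genes, 372 (3.86%) were higher and 737 (7.64%) were lower in IR at an adjusted p below 0.05 in limma with Benjamini-Hochberg adjustment over all genes, which is what rose and fell mean below. All log2 changes are IR minus sham on the scale of log2(FPKM + 0.5), with the standard error of the fit, and every adjusted p is from this fit. The median change of all genes was -0.05. A change of at least 2-fold was reached by 143 of the genes that rose and 236 of those that fell, and the 3 IR values lay apart from the 3 sham values in 1105 of the 1109 called genes and in 3137 of all 9649. Outside the 2 lists set aside, 357 genes rose and 711 fell. Genes that rose had a median level of 12.9 FPKM in their higher group, against 6.93 FPKM for those that fell and 6.63 FPKM for all genes. In the authors' deposited table for the same comparison, 320 genes were listed as higher and 567 as lower. Of those, 255 higher genes (79.7% of that list and 68.5% of the rises here) and 514 lower genes (90.7% and 69.7%) were also called here.

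**Figure D1:**
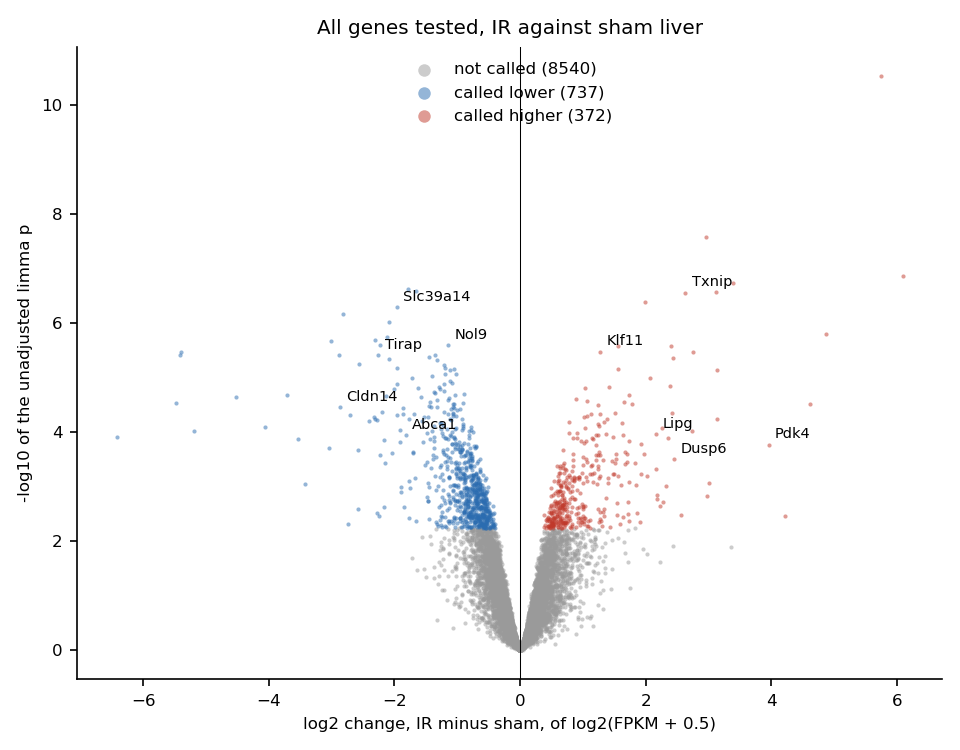
Each point is 1 of 9649 genes, with the log2 change (IR minus sham) on the horizontal axis and the negative log10 of the unadjusted limma p on the vertical axis. The 372 genes called higher are red, the 737 called lower are blue, and 10 genes named in the text are labelled.

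Sham replicate 3 lay nearest to the IR libraries. On the first principal component, which held 46.8% of the variance, sham replicate 3 was at -2.20, the other sham libraries at -21.2 and -18.2, and the IR libraries at 43.8, 33.4 and 29.8. Among the 737 genes that fell, sham replicate 3 was the lowest sham library in 543 (73.7%), against 47.1% of all genes. Without sham replicate 1, 105 genes rose and 210 fell, and without sham replicate 2 the counts were 100 and 210. Without sham replicate 3 they were 467 and 894. Counts more than 1.5 times lower than 372 and 737 were also found without IR replicate 1 (218 and 435), IR replicate 2 (241 and 437), IPO replicate 2 (227 and 486) and IPO replicate 3 (195 and 425). A call that held with each of the 9 libraries left out in turn is called stable below, and 75 rises and 181 falls were stable. The description label of every IR library carries 1 number, which sham replicate 2 shares, while the other sham libraries carry another, so that this number and the group are partly confounded. The labels do not say what it stands for. With it as a term in the fit, the change became the IR mean minus sham replicate 2 alone. Such a fit cannot separate the number from the spread among sham libraries, so its calls are not counted here. No called gene changed sign under any alternative in which it was tested. In 1105 of the 1109 the groups lay apart, so leaving out libraries could not have reversed their sign.

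**Figure D2:**
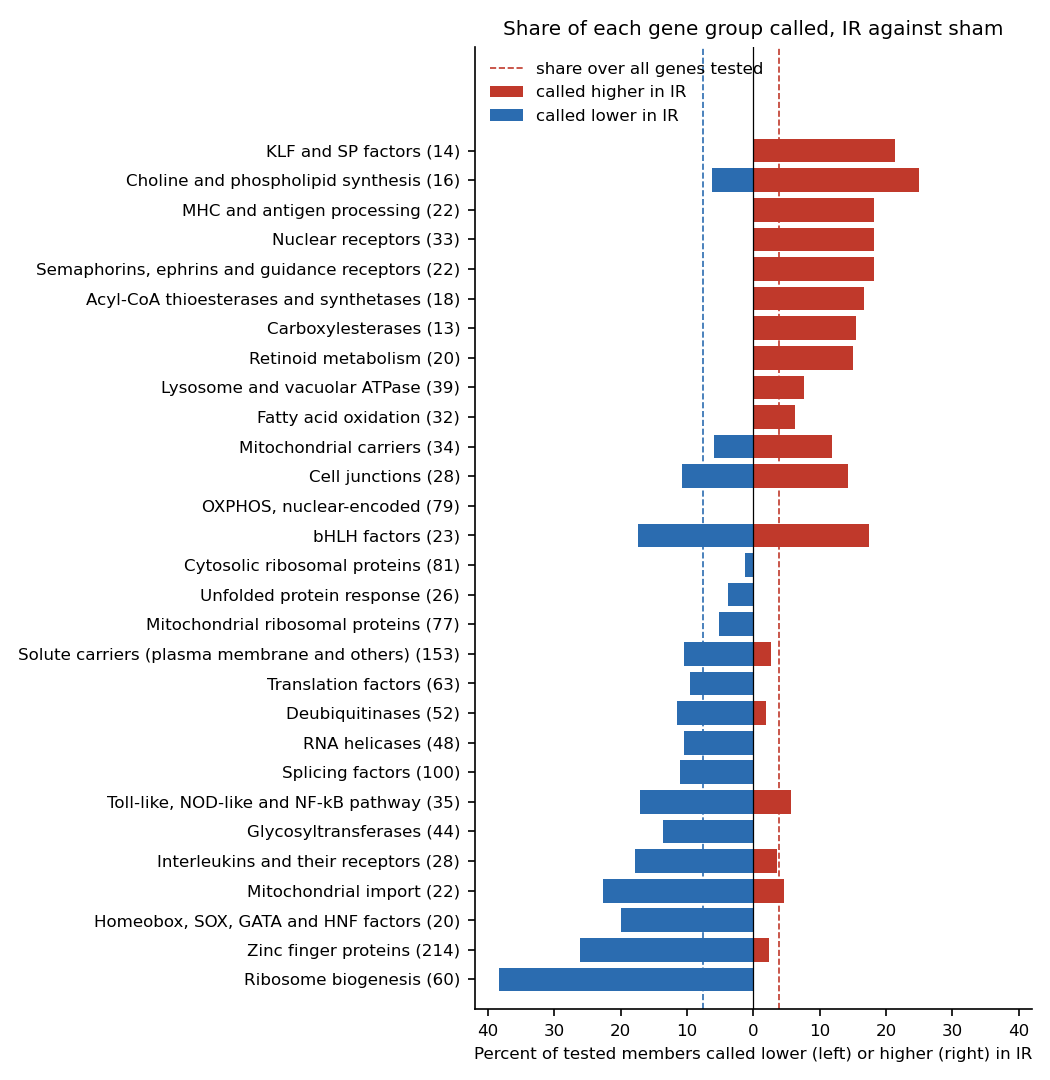
Bars give the percent of the tested members of 29 gene groups that were called lower (blue, left) or higher (red, right) in IR, with the number of tested members in parentheses. Dashed lines mark 3.86% higher and 7.64% lower over all genes tested, and ribosome biogenesis and zinc finger proteins reach farthest to the left.

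Ribosome biogenesis genes were lower in IR liver. Of 60 tested members, 23 fell (38.3%, against 7.64% of all genes), none rose, and 51 had a change below 0, with a median of -0.52 against -0.05 for all genes. Nol9, a polynucleotide kinase of ribosomal RNA processing, was at 6.96, 7.02 and 5.97 FPKM in sham and 2.65, 2.73 and 2.81 in IR, a change of log2 change -1.14 ± 0.12, adjusted p = 0.00128. Heatr1, which serves transcription and early processing of pre-ribosomal RNA, was at 7.68, 6.98 and 6.96 FPKM in sham and 2.94, 3.24 and 2.44 in IR (log2 change -1.20 ± 0.14, adjusted p = 0.00179). In both genes the IR libraries lay within a narrow range and below the lowest sham library. Rrs1, a factor of large subunit assembly, was at 35.8, 25.7 and 30.2 FPKM in sham and 16.3, 12.4 and 14.3 in IR (log2 change -1.06 ± 0.15, adjusted p = 0.00449). Gar1, a core protein of the H/ACA particles that guide pseudouridylation, was at 8.03, 7.79 and 6.69 FPKM in sham and 1.67, 3.73 and 2.51 in IR (log2 change -1.40 ± 0.22, adjusted p = 0.00633). Nop58, a core protein of the C/D box particles that guide ribose methylation, was at 7.3, 6.11 and 4.32 FPKM in sham and 2.58, 2.25 and 2.16 in IR (log2 change -1.15 ± 0.19, adjusted p = 0.00719). Each of these was separated between the groups, and in Nop58 sham replicate 3 was the lowest of the sham libraries. Nol8, Nol10, the small subunit export factor Ltv1 and the nucleolar GTPase Gnl3 completed the 9 stable falls, with changes of -1.09, -1.03, -0.81 and -0.81. Leaving out sham replicate 1 or sham replicate 2 gave 10 falls each, IR replicate 2 gave 14 and IPO replicate 3 gave 15.

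Npm1 and Ncl, which encode nucleolar proteins, changed less than the genes of these processing factors. Npm1, which encodes nucleophosmin, was at 42.2, 38.2 and 44.9 FPKM in sham and 37.8, 48.6 and 44.6 in IR, and Ncl, which encodes nucleolin, was at 20.1, 18.3 and 20.7 FPKM in sham and 20.7, 20.7 and 18.5 in IR. Neither passed the test (log2 change 0.06 ± 0.13, adjusted p = 0.786 and log2 change 0.02 ± 0.11, adjusted p = 0.935), and the groups overlapped in both. Outside the written list, Rrn3, the initiation factor of RNA polymerase I, and Rpp38, a subunit of RNase P and RNase MRP, also fell. Rrn3 was at 12.3, 12.8 and 10.3 FPKM in sham and 5.33, 6.8 and 6.05 in IR (log2 change -0.90 ± 0.14, adjusted p = 0.00532), and Rpp38 was at 8.07, 6.77 and 8.09 FPKM in sham and 1.85, 2.2 and 2.19 in IR (log2 change -1.66 ± 0.13, adjusted p = 0.000328). Both were separated between groups and stable.

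**Figure D3:**
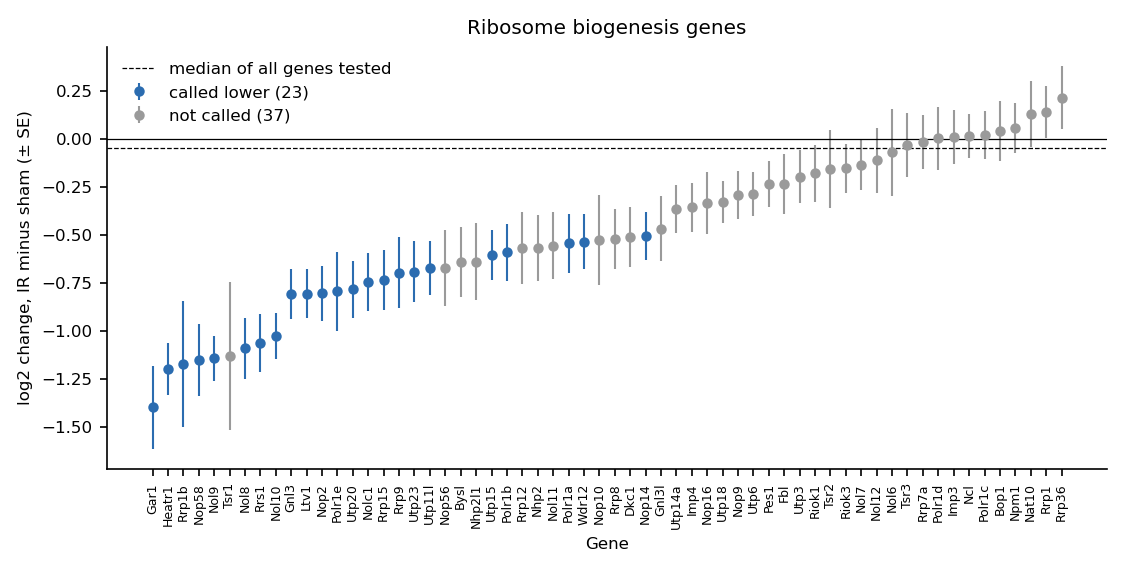
Points give the log2 change (IR minus sham) of each of 60 ribosome biogenesis genes with its standard error, ordered by size; the 23 called lower are blue and the 37 not called are grey. Only the genes at the far right, among them Npm1 and Ncl, lie at or above 0, and the dashed line is the median of all genes tested.

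Promoters of 300 bases, 250 before and 50 after the start, were taken from RefSeq (GRCm38.p6) for 7439 of the 9649 genes, 9453 promoters in all, and searched on both strands for CACGTG (the E-box bound by MYC and other bHLH proteins) and for TTCNNNGAA (the site bound by STAT proteins). CACGTG stood in 10 of 53 promoters of ribosome biogenesis genes (18.9%), in 10.3% of all and in 10.4% of those of genes that fell. TTCNNNGAA stood in 11.1% of promoters of genes that fell, 4.25% of those that rose and 6.81% of all. Leaving out the acute phase list, the share among genes that fell was 10.6%. These are descriptions of letters in a window and not of binding. The promoters shown are those of the ribosome biogenesis genes Ltv1 and Nop2 and of Rrn3, with CACGTG in capitals, and of the glycosylation gene B4galt1 and the receptor gene Tnfrsf1a, both described further on, with TTCNNNGAA in capitals. All 5 genes fell. Counted from the gene start, CACGTG begins 29 bases after it in Ltv1, 60 bases before it in Nop2, and 215 bases before it and 48 bases before it in Rrn3, while TTCNNNGAA begins 99 bases before it in B4galt1 and 244 bases before it in Tnfrsf1a.
Ltv1 (chr10:13193088-13193387, minus strand): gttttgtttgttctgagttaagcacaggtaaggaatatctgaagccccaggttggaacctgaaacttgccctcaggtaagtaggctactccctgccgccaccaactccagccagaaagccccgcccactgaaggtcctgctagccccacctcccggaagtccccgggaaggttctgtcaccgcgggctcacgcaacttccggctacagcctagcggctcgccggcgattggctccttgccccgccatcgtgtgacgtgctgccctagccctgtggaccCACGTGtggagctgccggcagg
Nop2 (chr6:125131633-125131932, plus strand): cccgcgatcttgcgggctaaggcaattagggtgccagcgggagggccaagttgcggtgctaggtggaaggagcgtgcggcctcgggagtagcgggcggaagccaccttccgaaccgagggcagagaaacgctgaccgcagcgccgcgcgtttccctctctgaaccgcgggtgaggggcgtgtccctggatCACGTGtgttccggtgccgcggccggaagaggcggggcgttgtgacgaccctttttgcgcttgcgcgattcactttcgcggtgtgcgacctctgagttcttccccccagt
Rrn3 (chr16:13780449-13780748, plus strand): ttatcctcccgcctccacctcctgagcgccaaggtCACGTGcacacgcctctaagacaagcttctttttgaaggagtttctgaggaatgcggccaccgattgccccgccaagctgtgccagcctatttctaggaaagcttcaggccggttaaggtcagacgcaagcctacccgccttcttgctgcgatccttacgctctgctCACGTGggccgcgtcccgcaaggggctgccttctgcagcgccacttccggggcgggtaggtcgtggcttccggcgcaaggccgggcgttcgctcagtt
B4galt1 (chr4:40853935-40854234, minus strand): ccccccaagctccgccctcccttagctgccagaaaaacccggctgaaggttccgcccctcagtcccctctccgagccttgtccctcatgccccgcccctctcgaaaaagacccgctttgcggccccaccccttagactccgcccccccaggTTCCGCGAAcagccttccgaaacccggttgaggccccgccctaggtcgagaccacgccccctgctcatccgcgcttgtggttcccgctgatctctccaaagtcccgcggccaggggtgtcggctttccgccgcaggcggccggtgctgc
Tnfrsf1a (chr6:125349473-125349772, plus strand): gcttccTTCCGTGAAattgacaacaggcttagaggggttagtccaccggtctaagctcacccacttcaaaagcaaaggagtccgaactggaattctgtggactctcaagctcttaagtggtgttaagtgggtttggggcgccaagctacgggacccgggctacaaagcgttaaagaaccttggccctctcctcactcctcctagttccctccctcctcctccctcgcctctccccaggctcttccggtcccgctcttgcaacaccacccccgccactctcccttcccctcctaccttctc

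The call of Nop2, an rRNA methyltransferase at 14.5, 13.9 and 10.9 FPKM in sham and 8.24, 7.15 and 6.43 in IR (log2 change -0.80 ± 0.14, adjusted p = 0.0104), was lost without sham replicate 1 (adjusted p = 0.00455 to 0.0504 over the 9 leave-one-out fits). Splicing factors, RNA helicases and translation factors lay nearer to the 7.64% of all genes that fell. Of 100 splicing factors, 11 fell (11%) and none rose, with a median of -0.28. Srsf1, a serine and arginine rich splicing factor, was at 14.4, 14.4 and 10.2 FPKM in sham and 5.76, 5.82 and 6.59 in IR (log2 change -1.03 ± 0.15, adjusted p = 0.00469), and it was the single stable call of that group. Leaving out sham replicate 1 or sham replicate 2 gave 1 splicing fall each, IR replicate 1 gave 5, and IPO replicates 1, 2 and 3 gave 7, 6 and 4. Among 48 RNA helicases, 5 fell (10.4%) and none rose. Ddx21, a nucleolar helicase, was at 23.1, 21 and 20.8 FPKM in sham and 14.4, 12.6 and 12.3 in IR (log2 change -0.70 ± 0.12, adjusted p = 0.00888), and Ddx19b, which acts in mRNA export, at 7.1, 6.36 and 5.22 FPKM in sham and 3.35, 3.1 and 3.58 in IR (log2 change -0.80 ± 0.14, adjusted p = 0.00905). Both helicases were separated between the groups and stable, and the group's count was 2 without sham replicate 2, its lowest.

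Translation factors gave 6 falls and no rise among 63 tested (9.52%), while leaving out sham replicates 1, 2 and 3 gave 1, 2 and 11 falls and IR replicate 2 gave 3. The 6 include Eif2ak2, a kinase, and Eef1e1, of the tRNA synthetase complex, which are not translation factors themselves. Eif1a, a scanning factor of initiation, was at 73.1, 63.2 and 45.6 FPKM in sham and 20.3, 29.4 and 30.0 in IR (log2 change -1.17 ± 0.20, adjusted p = 0.00924). Abce1, the ABC protein that recycles ribosomes, was at 28.1, 27.8 and 22.6 FPKM in sham and 11.4, 16.6 and 12.8 in IR (log2 change -0.93 ± 0.16, adjusted p = 0.00924), and Rars2, the mitochondrial arginyl-tRNA synthetase, at 7.13, 6.88 and 5.73 FPKM in sham and 2.52, 3.55 and 3.49 in IR (log2 change -0.95 ± 0.16, adjusted p = 0.00865). In all 3 genes the highest IR value was below the lowest sham value. Of 81 genes listed as cytosolic ribosomal proteins, 78 had a change below 0, with a median of -0.20, and 1 fell. That fall was Rpl7l1, an Rpl7-like gene and not a core ribosomal protein gene, and the other 80 were not called. Relative to the sham mean they averaged 0.06, 0.05 and -0.11 in sham replicates 1 to 3 and -0.45, -0.16 and -0.01 in IR replicates 1 to 3 on the log2 scale, so the groups overlapped and IR replicate 1 was lowest.

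Mitochondrial gene groups differed in their share of falls. Of 77 mitochondrial ribosomal protein genes, 4 fell (5.19%), below the 7.64% of all genes. Still, 66 of the 77 had a change below 0, with a median of -0.23 against -0.05 for all genes. Mrpl47, of the large subunit, was the stable one, at 5.88, 6.5 and 4.73 FPKM in sham and 2.16, 2.48 and 2.71 in IR (log2 change -1.07 ± 0.14, adjusted p = 0.00374). The count was 1 without sham replicate 1, sham replicate 2 or any 1 IPO library. Among 22 import genes 5 fell (22.7%) and 1 rose (4.55%). That count of falls was 0 without sham replicate 1. None of 79 nuclear-encoded and none of 13 mitochondrially encoded oxidative phosphorylation genes passed the limma test, with medians of -0.12 and -0.21. At an unadjusted p below 0.05 there were 4 and 1, counts given without the share of all genes at that threshold. Idh3a, a subunit of isocitrate dehydrogenase in the citric acid cycle, fell and was stable, at 29.7, 30.0 and 26.2 FPKM in sham and 17, 15.8 and 19.5 in IR (log2 change -0.70 ± 0.12, adjusted p = 0.00865). Sco2, a copper chaperone for cytochrome oxidase that stands outside that list, rose, at 31.9, 34.7 and 26.7 FPKM in sham and 71, 59.8 and 66.7 in IR (log2 change 1.07 ± 0.15, adjusted p = 0.00464).

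**Figure D4:**
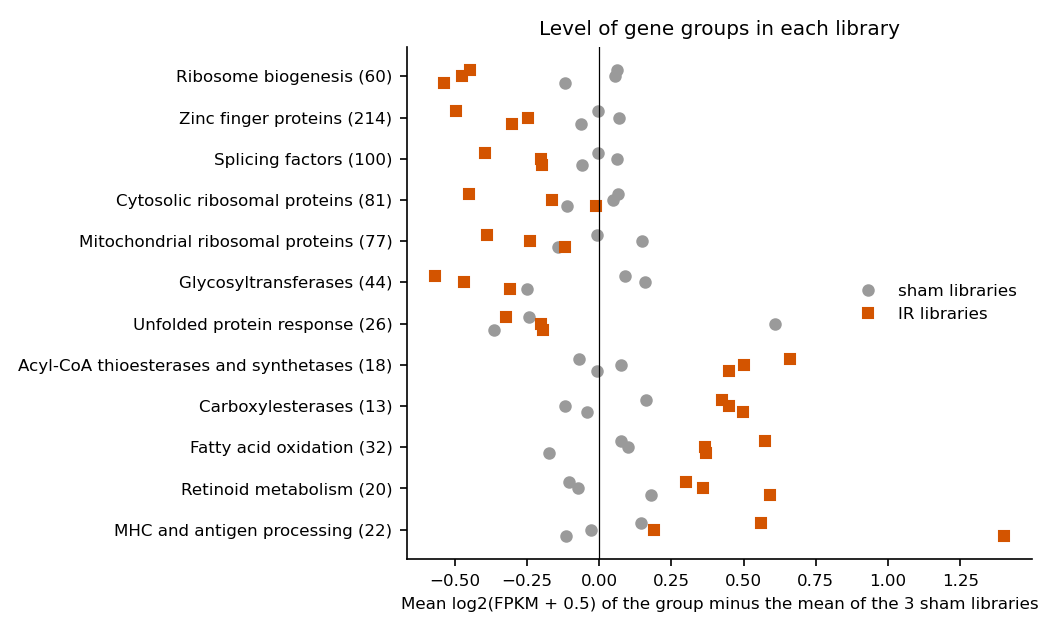
For 12 gene groups, each point is 1 library's mean log2(FPKM + 0.5) over the tested members minus the mean of the 3 sham libraries; within a row the libraries run from replicate 1 at the top to replicate 3 at the bottom. Ribosome biogenesis, zinc finger and splicing genes are lower in all 3 IR libraries, the thioesterase, carboxylesterase and fatty acid oxidation groups are higher in all 3, and IR replicate 3 stands apart for MHC genes.

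Zinc finger proteins gave more falls than any other family described. Of 214 tested genes matched by symbol (Zfp, Zkscan, Zbtb and the like), 56 fell (26.2%), 5 rose and the median was -0.34. Most encode KRAB or related C2H2 repressors of largely unmapped function, but the match is by symbol alone and includes Zfp36l1 and Zfp36l2, mRNA decay proteins that did not pass the test (log2 change -0.20 ± 0.21, adjusted p = 0.548 and log2 change 0.51 ± 0.32, adjusted p = 0.306). Many lie in clusters of near-identical copies, such as Zfp729a and Zfp729b, between which reads may be shared. Zfp397 was at 5.47, 4.93 and 4.77 FPKM in sham and 1.45, 1.98 and 1.73 in IR (log2 change -1.33 ± 0.14, adjusted p = 0.00149), Zkscan7 at 4.97, 4.05 and 5.05 FPKM in sham and 0.978, 1.78 and 1.66 in IR (log2 change -1.41 ± 0.19, adjusted p = 0.00398) and Zfp445, which protects genomic imprints, at 22.4, 21.3 and 27.7 FPKM in sham and 8.2, 13.1 and 10.3 in IR (log2 change -1.16 ± 0.18, adjusted p = 0.00607). In these genes the IR libraries were all below the sham libraries. Zfp143, an activator of small nuclear RNA genes, was at 3.13, 3.7 and 2.04 FPKM in sham and 0.494, 1.27 and 0.739 in IR (log2 change -1.38 ± 0.25, adjusted p = 0.0104), and Zbtb20, a repressor of alpha-fetoprotein in liver, was at 8.67, 7.34 and 8.46 FPKM in sham and 2.89, 3.19 and 4.88 in IR (log2 change -1.09 ± 0.18, adjusted p = 0.00817). The stable falls were 17. Leaving out sham replicate 1 gave 21 falls, sham replicate 2 gave 19 and IR replicate 1 gave 35. Among those averaging 5 FPKM or more, 11 fell. That filter left 5277 genes of all kinds, of which 418 fell, and the number of zinc finger genes among the 5277 is not given. Most of the 56 falls were thus in genes averaging below 5 FPKM, and the depth behind such values is unknown. Over the leave-one-out fits the count of rises was 0 to 7, lowest without sham replicate 2.

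Other transcription factor families moved in both directions. All 6 calls among 33 nuclear receptors were rises (18.2%, against 3.86% of all genes). The count was 1 without sham replicate 1 or sham replicate 2. Nr1d1, a repressor of the clock, was the stable one, at 11.3, 8.57 and 11 FPKM in sham and 50.9, 42.5 and 34.4 in IR (log2 change 1.99 ± 0.16, adjusted p = 0.000434). Of 20 homeobox, SOX, GATA and HNF factors 4 fell (20%, against 7.64% of all genes) and none rose. Onecut2, a hepatic cut-homeobox factor, was at 17.3, 16.9 and 13 FPKM in sham and 3.91, 6.31 and 6.53 in IR (log2 change -1.43 ± 0.19, adjusted p = 0.00374), and Hnf4a, the abundant nuclear receptor of hepatocytes, did not pass the test at 237, 215 and 191 FPKM in sham and 213, 201 and 185 in IR (log2 change -0.10 ± 0.13, adjusted p = 0.643). Bach1, a haem-sensing bZIP repressor, was at 24.1, 21.5 and 22.5 FPKM in sham and 13.3, 11.7 and 13.8 in IR (log2 change -0.79 ± 0.14, adjusted p = 0.00996). Among 23 bHLH factors 4 rose and 4 fell (17.4% each), with 2 rises and 1 fall left without sham replicate 1 or sham replicate 2. Hes1, a Notch-responsive repressor, was at 4.87, 6.68 and 2.73 FPKM in sham and 10.7, 19.9 and 18.3 in IR (log2 change 1.70 ± 0.30, adjusted p = 0.0101). Among 14 KLF and SP factors 3 rose (21.4%), and the count was 1 without sham replicate 1, sham replicate 2 or any 1 IR library. Klf11 was the stable one, at 3.24, 3.07 and 3.05 FPKM in sham and 9.49, 8.05 and 7.32 in IR (log2 change 1.27 ± 0.13, adjusted p = 0.00139). The 3 sham values of Klf11 lay within a narrow range, whereas those of Hes1 varied more than 2-fold and still stayed below the lowest IR value. Of 99 chromatin regulators 4 fell (4.04%) and 3 rose (3.03%), both below the shares of all genes, and without sham replicate 1 or sham replicate 2 there were 1 fall and 0 rises. Chd9, a chromodomain helicase, had the smallest p among them, at 20.6, 20.4 and 12 FPKM in sham and 3.33, 4.55 and 6.66 in IR (log2 change -1.77 ± 0.26, adjusted p = 0.00484), and Tbl1xr1, a subunit of the nuclear receptor corepressor complex, was at 17.5, 11.4 and 9.07 FPKM in sham and 2.26, 2.77 and 3.38 in IR (log2 change -1.96 ± 0.22, adjusted p = 0.00179).

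Lipid genes were mostly above 0 in several groups, with calls few in number. The shares that rose in the 3 groups below were above the 3.86% of all genes. All 18 acyl-CoA thioesterases and synthetases had a change above 0, with a median of 0.47, and 3 rose (16.7%). Acot3, a peroxisomal thioesterase, was at 4.63, 5.49 and 4.53 FPKM in sham and 23.5, 26 and 17.3 in IR (log2 change 2.06 ± 0.25, adjusted p = 0.00219), and Acot4, which prefers succinyl and dicarboxylyl esters, at 13.5, 15 and 13.7 FPKM in sham and 30.6, 31.6 and 27.5 in IR (log2 change 1.06 ± 0.14, adjusted p = 0.00365). These Acot genes lie in a cluster of close copies, so the authors' counting could split reads between them. Acsl1, the most abundant long-chain synthetase of that list, was at 106, 95.4 and 98.8 FPKM in sham and 209.9, 127 and 105 in IR and did not pass the test (log2 change 0.49 ± 0.24, adjusted p = 0.2). All 13 carboxylesterases had a change above 0, with a median of 0.48, and 2 rose (15.4%), neither of them stable (0 to 2 rises over the leave-one-out fits). Of 32 fatty acid oxidation genes, 30 were above 0, with a median of 0.27, and 2 rose (6.25%, with 1 to 3 rises over the leave-one-out fits). Crot, a peroxisomal carnitine acyltransferase outside the list, was at 139, 103 and 98.6 FPKM in sham and 255, 218 and 195 in IR (log2 change 0.98 ± 0.16, adjusted p = 0.00771). The IR libraries were all above the sham libraries in Acot3, Acot4 and Crot.

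Lipid droplet and ABC transporter genes changed in both directions. Of 24 lipid droplet and triglyceride genes 4 rose (16.7%, against 3.86% of all genes) and 2 fell (8.33%, against 7.64%), with a median of 0.29. The rises numbered 1 without sham replicate 2, and no fall was left without sham replicate 1, sham replicate 2, IR replicate 1, IR replicate 2, IPO replicate 2 or IPO replicate 3. Of 31 genes listed as ABC transporters 2 rose and 2 fell (6.45% each), and the rises ran from 0 to 7 over the leave-one-out fits. The falls were Abca1 and the ribosome recycler Abce1, which is not a transporter. Lipg, endothelial lipase, which cleaves phospholipids of high density lipoprotein, was at 1.21, 1.32 and 2.06 FPKM in sham and 4.29, 13.1 and 10.6 in IR (log2 change 2.17 ± 0.34, adjusted p = 0.00679). Lipa, lysosomal acid lipase, was at 44.7, 47.3 and 45.7 FPKM in sham and 84.1, 86.9 and 85.9 in IR (log2 change 0.89 ± 0.12, adjusted p = 0.00356), with close replicates in both groups. Abca1, which exports cholesterol to apolipoprotein A-I, was at 89.2, 62.6 and 35.4 FPKM in sham and 20.4, 14.1 and 14.7 in IR (log2 change -1.82 ± 0.29, adjusted p = 0.00685), and sham replicate 3 was its lowest sham library. Among 39 lysosomal genes 3 rose (7.69%) and none fell, and Lipa was the stable one and the only rise left without sham replicate 1 or sham replicate 2. Of 20 retinoid genes 3 rose (15%, against 3.86% of all genes) and none fell, with a median of 0.38, and the rises ran from 1 without sham replicate 2 to 5 over the leave-one-out fits. Dhrs3, which reduces retinaldehyde to retinol, was at 12.6, 10.2 and 18.4 FPKM in sham and 31.2, 36.9 and 30.5 in IR (log2 change 1.26 ± 0.19, adjusted p = 0.00564). Adh1, an alcohol dehydrogenase of ethanol and retinol, was at 258, 245 and 251 FPKM in sham and 413, 395 and 409 in IR (log2 change 0.69 ± 0.13, adjusted p = 0.013), and its call was lost without sham replicate 2 (adjusted p = 0.0127 to 0.0557 over the 9 leave-one-out fits).

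Redox and drug metabolism genes changed in both directions. Txnip, which binds thioredoxin and restrains glucose uptake, had among the smallest p of all rises, at 11.6, 15.2 and 20.9 FPKM in sham and 81.9, 108 and 108 in IR (log2 change 2.63 ± 0.21, adjusted p = 0.000328). Nnmt, which methylates nicotinamide, was at 311, 234 and 186 FPKM in sham and 106, 81.8 and 97.5 in IR (log2 change -1.33 ± 0.18, adjusted p = 0.00398). Of 39 P450 genes of families 1 to 3, which oxidise drugs and steroids, 4 fell (10.3%, against 7.64% of all genes) and none rose, although the median was 0.17, and 3 of the falls were stable. Cyp2b10, the phenobarbital-inducible enzyme, was at 185, 74.4 and 172 FPKM in sham and 1.55, 3.25 and 3.63 in IR (log2 change -5.40 ± 0.56, adjusted p = 0.00139). Cyp2c29 was at 494, 550.3 and 697 FPKM in sham and 103, 211 and 181 in IR (log2 change -1.86 ± 0.27, adjusted p = 0.00449), and Cyp3a13 at 181, 185 and 219.9 FPKM in sham and 82.6, 103 and 88.3 in IR (log2 change -1.09 ± 0.13, adjusted p = 0.00261). Both Cyp2b and Cyp2c genes have close copies with which reads may be shared. Of 12 P450 family 4 genes 1 rose and none fell, and this stable rise was Cyp4b1, at 4.41, 5.29 and 4.86 FPKM in sham and 8.48, 9.12 and 8.5 in IR (log2 change 0.78 ± 0.12, adjusted p = 0.00521). All of these genes were separated between groups. No member passed the limma test among 17 UDP-glucuronosyltransferases, 14 aldehyde dehydrogenases, 9 urea cycle genes, 18 apolipoproteins, 31 complement genes, 26 coagulation genes, 47 proteasome subunits, 22 histones or 15 peroxisome biogenesis genes. At an unadjusted p below 0.05 these groups held 1, 4, 0, 3, 2, 4, 11, 4 and 2 genes. Of 20 major urinary protein genes, 19 had a change below 0 and none passed the test (3 at an unadjusted p below 0.05). These are near-identical copies. The share of all genes at an unadjusted p below 0.05 is not given here, so the counts at that threshold are not read as many or few.

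Transporters of zinc, iron and magnesium were among the solute carriers that fell. Of 153 solute carriers outside the mitochondrial family 16 fell (10.5%) and 4 rose, and 7 falls were stable. The median change was 0.01, so the group as a whole did not stand below the other genes. Slc39a14, which imports zinc and non-transferrin iron, was at 107, 89.3 and 66.2 FPKM in sham and 22.7, 21.8 and 20.6 in IR (log2 change -1.96 ± 0.17, adjusted p = 0.00049). Slc30a5, which loads zinc into the secretory pathway, was at 48.3, 56.3 and 24.2 FPKM in sham and 7.66, 11.6 and 12.6 in IR (log2 change -1.91 ± 0.30, adjusted p = 0.00611). Slc41a1, a magnesium transporter, was at 11.4, 6.37 and 3.62 FPKM in sham and 1.06, 0.656 and 0.769 in IR (log2 change -2.40 ± 0.36, adjusted p = 0.0051), and Slc37a1, a glucose-6-phosphate exchanger of the endoplasmic reticulum, at 11.8, 8.02 and 4.73 FPKM in sham and 0.406, 0.358 and 0.841 in IR (log2 change -3.01 ± 0.30, adjusted p = 0.00125). In each of these 4 genes sham replicate 3 was the lowest sham library and still above every IR library. Ireb2, which encodes iron regulatory protein 2, was at 40.9, 41.4 and 31.1 FPKM in sham and 11.6, 17 and 14.4 in IR (log2 change -1.37 ± 0.17, adjusted p = 0.00306). It belongs to a list of 24 haem and iron genes that went both ways, with 2 rises and 2 falls (8.33% each) and a median of 0.13. The 2 rises, Tmprss6 and Bmp6, which act on hepcidin (log2 change 0.59 ± 0.13, adjusted p = 0.0227 and log2 change 0.87 ± 0.20, adjusted p = 0.0275), were both lost without sham replicate 1 or sham replicate 2, and 1 fall was left in 8 of the 9 leave-one-out fits. The count of solute carrier falls was 7 without sham replicate 1, its lowest, and 22 at most.

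Of 34 mitochondrial carriers 4 rose (11.8%, against 3.86% of all genes) and 2 fell (5.88%, against 7.64%). Slc25a25, the calcium-regulated carrier of ATP-Mg and phosphate, was at 41.6, 21.2 and 25.1 FPKM in sham and 109.6, 86.4 and 58.4 in IR (log2 change 1.53 ± 0.27, adjusted p = 0.0102). Slc25a51, the carrier of NAD, went the other way, at 33.8, 58.7 and 29.4 FPKM in sham and 17.7, 16.8 and 15.5 in IR (log2 change -1.20 ± 0.22, adjusted p = 0.0122). Both calls were stable, and the count of rises was 1 without sham replicate 2.

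**Figure D5:**
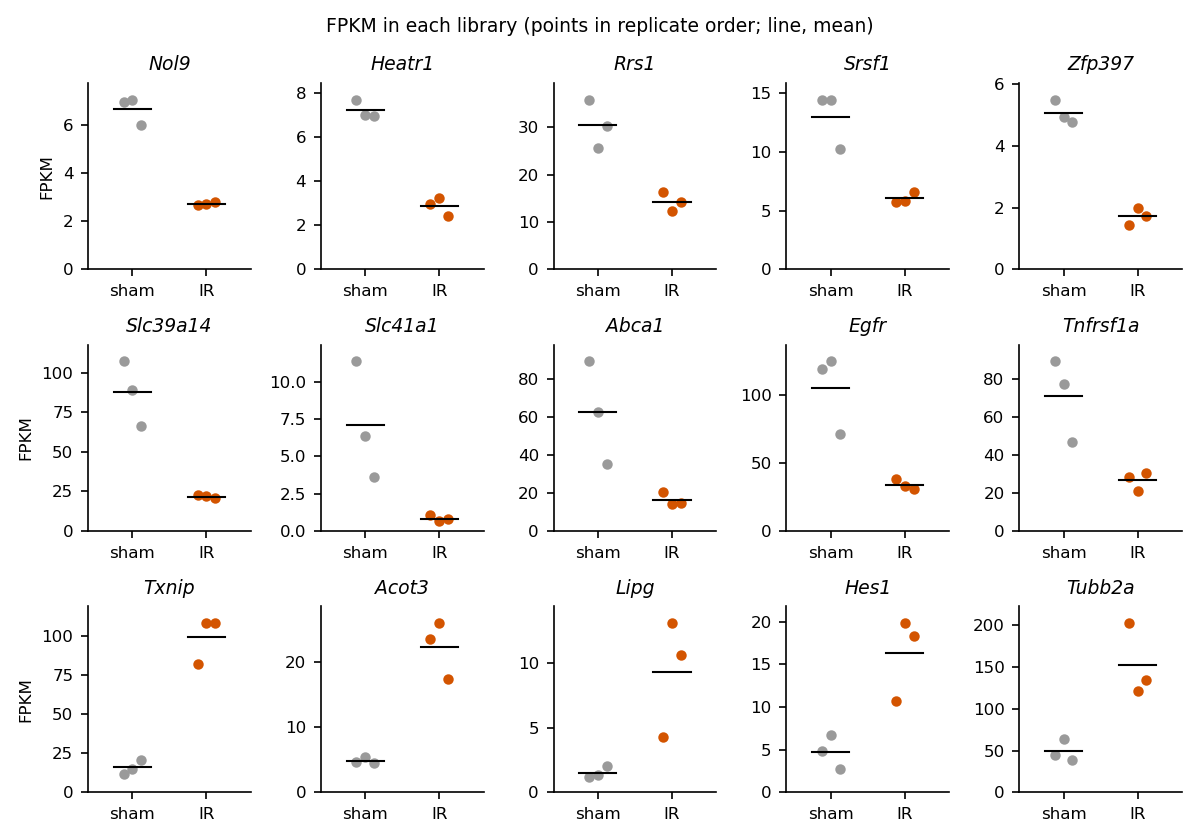
FPKM of 15 genes in the 3 sham (grey) and 3 IR (orange) libraries, each axis starting at 0, with the points in replicate order and a line at the mean. In each gene the 3 IR libraries lie on 1 side of the 3 sham libraries, as for Slc39a14, where IR lies between 20.6 and 22.7 FPKM.

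Of 30 growth factors and their receptors 4 rose (13.3%, against 3.86% of all genes) and 1 fell (3.33%, against 7.64%). Without sham replicate 1 or sham replicate 2, 1 rise was left. Kdr, the VEGF receptor of endothelium, was the stable rise, at 1.98, 3.08 and 2.45 FPKM in sham and 6.95, 6.78 and 8.7 in IR (log2 change 1.42 ± 0.18, adjusted p = 0.00279). It is also 1 of 9 sinusoidal endothelial markers, which summed to 92.9, 99.1 and 61.7 FPKM in sham and 73.7, 75.4 and 118 in IR and overlapped between the groups. Fgfr4, the hepatocyte receptor of FGF15, was at 3.29, 2.96 and 6.09 FPKM in sham and 9.68, 8.8 and 7.95 in IR (log2 change 1.07 ± 0.22, adjusted p = 0.0183), a call lost without sham replicate 1, sham replicate 2 or IR replicate 1 (adjusted p = 0.000953 to 0.0772 over the 9 leave-one-out fits). Egfr, the receptor of epidermal growth factor, was the fall, at 119, 124 and 70.9 FPKM in sham and 38, 33.2 and 31 in IR (log2 change -1.57 ± 0.23, adjusted p = 0.00504). Nrg4, a ligand of the related receptor ErbB4, was at 9.53, 15.3 and 6.23 FPKM in sham and 1.06, 0.953 and 1.78 in IR (log2 change -2.56 ± 0.28, adjusted p = 0.00167). Dusp6, the phosphatase of ERK, was at 4.87, 9.7 and 17.4 FPKM in sham and 29.4, 69.2 and 76.2 in IR (log2 change 2.45 ± 0.45, adjusted p = 0.0114), with a more than 3-fold range in sham. Map3k1 fell and Map3k13 rose among the MAP kinase kinase kinases, at 5.36, 3.91 and 4.16 FPKM in sham and 0.842, 1.46 and 1.75 in IR (log2 change -1.45 ± 0.20, adjusted p = 0.00398) and at 0.492, 0.44 and 1.66 FPKM in sham and 3.59, 4.04 and 3.46 in IR (log2 change 1.73 ± 0.29, adjusted p = 0.00771). Epha2, an ephrin receptor, was at 8.04, 7.78 and 5.33 FPKM in sham and 31.1, 19.2 and 13.5 in IR (log2 change 1.47 ± 0.27, adjusted p = 0.012) and Efnb1, an ephrin ligand, at 2.44, 2.83 and 2.11 FPKM in sham and 4.44, 4.66 and 5.22 in IR (log2 change 0.84 ± 0.14, adjusted p = 0.0071). Both belong to 22 guidance genes of which 4 rose (18.2%) and none fell, with 2 rises left without sham replicate 1 or sham replicate 2. Sik1, a salt-inducible kinase, was at 13.3, 9.75 and 10.6 FPKM in sham and 45.9, 28.8 and 37.2 in IR (log2 change 1.68 ± 0.29, adjusted p = 0.00981). Smad5, a transducer of BMP signals, fell, at 6.77, 7.05 and 5.6 FPKM in sham and 2.75, 3.62 and 3.16 in IR (log2 change -0.92 ± 0.14, adjusted p = 0.00616), and its call was stable.

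Cytokine receptor genes changed in both directions. Of 28 interleukins and their receptors 5 fell (17.9%, against 7.64% of all genes) and 1 rose (3.57%, against 3.86%), with a median of 0.02. Of the falls 3 were stable, and with 1 library left out their lowest count was 3. Il15ra was at 6.76, 6.26 and 8.95 FPKM in sham and 2.71, 3.08 and 2.77 in IR (log2 change -1.21 ± 0.15, adjusted p = 0.00261), Il13ra1 at 21.6, 20.6 and 13.4 FPKM in sham and 3.63, 5.47 and 7.25 in IR (log2 change -1.69 ± 0.24, adjusted p = 0.00449), and Il6st, which encodes the shared receptor chain gp130, at 22, 30.5 and 17.3 FPKM in sham and 9.28, 8.7 and 11.8 in IR (log2 change -1.16 ± 0.22, adjusted p = 0.0132). Of 27 genes matched by symbol as TNF superfamily and TRAF, 4 rose (14.8%) and 3 fell (11.1%). With 1 library left out the rises numbered 0 to 2 and the falls 1 to 6. The match took in Ltbp4 and Tnfaip8l1 among the rises and Traf3ip1 among the falls, which belong to neither family. Tnfrsf1a, the main receptor of tumour necrosis factor, was the stable fall, at 89.5, 77.7 and 46.7 FPKM in sham and 28.7, 20.9 and 30.5 in IR (log2 change -1.37 ± 0.23, adjusted p = 0.00906). The other receptor of that factor, Tnfrsf1b, was at 13.3, 10.3 and 12.8 FPKM in sham and 16.7, 18.2 and 16.4 in IR (log2 change 0.49 ± 0.13, adjusted p = 0.0467), a rise lost in each of the 9 leave-one-out fits. In Il15ra, Il13ra1, Il6st and Tnfrsf1a every IR library was below every sham library. Tirap, an adaptor of TLR2 and TLR4, was at 14.9, 14.4 and 7.77 FPKM in sham and 1.69, 2.19 and 2.45 in IR (log2 change -2.25 ± 0.24, adjusted p = 0.00139), and Tbk1, a kinase of the innate response, at 18.8, 18.1 and 15.4 FPKM in sham and 9.49, 9.89 and 10.9 in IR (log2 change -0.76 ± 0.12, adjusted p = 0.00633). Ptpn2, a phosphatase of JAK and STAT proteins, was at 16, 14.7 and 10.9 FPKM in sham and 4.63, 4.31 and 5.28 in IR (log2 change -1.44 ± 0.15, adjusted p = 0.0014). Of 35 genes of the Toll-like, NOD-like and NF-kB pathway 6 fell (17.1%) and 2 rose (5.71%), with 1 fall left without sham replicate 2. Summed Kupffer, monocyte and T and NK marker levels overlapped between the groups and were highest in IR replicate 3, and their part in these falls was not tested.

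MHC and antigen processing genes had a median change of 0.60, and all 22 were above 0, with 4 rises (18.2%, against 3.86% of all genes). Their mean level relative to sham was 0.56, 0.19 and 1.40 in the IR libraries, and IR replicate 3 stood highest by a wide margin. None of the 4 rises was stable, and the count was 0 without sham replicate 1, sham replicate 2, IR replicate 1 or any 1 of the IPO libraries. Cd74, the invariant chain of class II molecules, was at 38.5, 40.2 and 28.1 FPKM in sham and 76.8, 44.3 and 159 in IR (log2 change 1.20 ± 0.38, adjusted p = 0.0718), which did not pass the test except without IR replicate 2 (log2 change 1.64, adjusted p = 0.0217; 0.0217 to 0.152 over the leave-one-out fits). The class I gene H2-D1 was at 224, 197 and 178 FPKM in sham and 256, 216 and 359.9 in IR (log2 change 0.44 ± 0.18, adjusted p = 0.142), with overlap between the groups. Monocyte markers, at 41.5, 44.4 and 32.3 FPKM in sham and 46.6, 37.1 and 110 in IR, and Kupffer and T and NK markers were highest in the same library. So were the B cell markers Cd79a and Cd79b, at 0.691, 0.322 and 0.635 FPKM in sham and 0.916, 1.55 and 2.13 in IR, where the groups did not overlap (exact two-sided permutation p = 0.1, the smallest possible) but neither gene averaged 1 FPKM. The part of these markers in the MHC values was not tested. Class I genes are close copies of each other, so reads may be shared between them.

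Among genes of protein modification and turnover falls outnumbered rises, in small numbers. That was also so over all genes, of which 7.64% fell and 3.86% rose. Of 44 glycosyltransferases 6 fell (13.6%) and none rose, with a median of -0.34. St3gal1, a sialyltransferase of O-glycans, was at 41.8, 41.4 and 39.9 FPKM in sham and 22, 17.5 and 16.9 in IR (log2 change -1.11 ± 0.13, adjusted p = 0.00181), and B4galt1, which adds galactose to N-glycans, at 47.8, 37.8 and 27.2 FPKM in sham and 15.4, 11.2 and 15.6 in IR (log2 change -1.36 ± 0.21, adjusted p = 0.00577). Without sham replicate 1 the count was 3. Serpina10, the secreted inhibitor that acts with protein Z on factor Xa, was at 204, 203 and 99.8 FPKM in sham and 30.2, 34.4 and 46.4 in IR (log2 change -2.13 ± 0.28, adjusted p = 0.00334). Of 26 genes of the unfolded protein response 1 fell, Xbp1, and 22 were below 0. Relative to the sham mean, that list averaged -0.24, 0.61 and -0.36 in sham replicates 1 to 3 and -0.32, -0.20 and -0.19 in IR replicates 1 to 3, on the log2 scale. Sham replicate 2 alone stood above the other 5 libraries, which overlapped. Of 52 deubiquitinases 6 fell (11.5%) and 1 rose (1.92%), Otud1. No fall was stable, with 1 left without sham replicate 1 or sham replicate 2. Otud1 was at 1.00, 1.16 and 1.58 FPKM in sham and 11.7, 13.5 and 19.5 in IR (log2 change 3.12 ± 0.25, adjusted p = 0.000328) and stable. Of 201 ubiquitin ligases and conjugating enzymes 9 fell (4.48%) and 4 rose (1.99%), below the shares of all genes, and no fall was left without sham replicate 1 or sham replicate 2.

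Structural genes included both strong rises and strong falls. Tubb2a, a beta-tubulin, was at 44.6, 64.5 and 39.2 FPKM in sham and 203, 122 and 134 in IR (log2 change 1.62 ± 0.24, adjusted p = 0.00531). Its neighbour Tubb2b, a near-identical copy with which reads may be shared, was at 4.68, 7.71 and 4.02 FPKM in sham and 28.7, 13.4 and 15.9 in IR (log2 change 1.70 ± 0.32, adjusted p = 0.0122), a call lost without sham replicate 1 (adjusted p = 0.0168 to 0.0525 over the 9 leave-one-out fits). Krt8 and Krt18, the keratin pair of hepatocytes, which cholangiocytes make too, were the 2 rises among 7 intermediate filament genes. Krt8 was at 72.2, 66.9 and 150.3 FPKM in sham and 603, 298 and 272 in IR and Krt18 at 112, 125 and 143 FPKM in sham and 526, 242 and 223 in IR, with IR replicate 1 highest in both. The call of Krt8 (log2 change 2.02 ± 0.40, adjusted p = 0.0167) was lost without sham replicate 1 or sham replicate 2 (adjusted p = 0.00709 to 0.0698 over the 9 leave-one-out fits), and that of Krt18 (log2 change 1.27 ± 0.34, adjusted p = 0.0417) in 7 of the 9 leave-one-out fits, those without IR replicate 3 and IPO replicate 1 being the exceptions (adjusted p = 0.0309 to 0.131 over the 9 leave-one-out fits). Cholangiocyte markers summed to 25.2, 19 and 23.8 FPKM in sham and 40, 31.9 and 29.2 in IR, again highest in IR replicate 1 and without overlap (exact two-sided permutation p = 0.1, the smallest possible), though no marker passed the test, and their part in the keratin values was not tested. Of 28 junction genes 4 rose (14.3%, against 3.86% of all genes) and 3 fell (10.7%, against 7.64%). Over the leave-one-out fits there were 1 to 4 rises and 1 to 3 falls, both lowest without sham replicate 1, sham replicate 2 or IR replicate 1. Cldn14, a claudin of tight junctions, was at 54.2, 21.9 and 15.5 FPKM in sham and 4.22, 2.22 and 3.44 in IR (log2 change -2.87 ± 0.39, adjusted p = 0.00398), and Tjp3, a scaffold of tight junctions, at 2.57, 3.31 and 4.77 FPKM in sham and 9.23, 7.74 and 7.95 in IR (log2 change 1.15 ± 0.19, adjusted p = 0.00713). Itgb5, an integrin beta chain, was at 8.72, 10.2 and 11.1 FPKM in sham and 21.4, 16.6 and 19.6 in IR (log2 change 0.90 ± 0.14, adjusted p = 0.0066). In the sham group Cldn14 ranged more than 3-fold and still lay above all IR values.

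Of 45 genes of mRNA decay and CCCH zinc fingers 3 rose and 3 fell (6.67% each, against 3.86% and 7.64% of all genes). There was 1 rise left without sham replicate 1 or sham replicate 2 and 1 fall without sham replicate 2. Zc3h13, a subunit of the complex that methylates adenosine in mRNA, was at 34, 30.0 and 11.8 FPKM in sham and 4.05, 4.4 and 4.3 in IR (log2 change -2.30 ± 0.34, adjusted p = 0.00484). Tob1, an antiproliferative protein that recruits the deadenylase complex, was at 30.1, 27.3 and 35.1 FPKM in sham and 55.7, 91.5 and 98.9 in IR (log2 change 1.36 ± 0.22, adjusted p = 0.00677). Ifrd1, an interferon-related regulator outside the families, was at 4.59, 4.58 and 5.66 FPKM in sham and 41.9, 19.4 and 29.3 in IR (log2 change 2.43 ± 0.26, adjusted p = 0.00144). Zc3h13 lay within a narrow range in IR, whereas sham replicate 3 was well below the other sham libraries.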

How the data were processed

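Libraries of total liver RNA were made with a stranded KAPA kit, per the labels' protocols, and the submitters' processing notes name mm10. The aligner, annotation and counting program, strand setting included, are not given in these sources, so overlapping and antisense genes cannot be told apart. The gene table holds FPKM, computed and deposited by the authors. In the authors' deposited table of differing genes the log2 change is a difference of mean log2(FPKM + 1), the fold change is the ratio it gives, and the p-value and q-value come from a test that is not named. That table was used as a list only; 5 of its 320 higher and 3 of its 567 lower genes have q below 0.05, and all have p below 0.05 and a fold of at least 1.5.

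FPKM do not show how many reads stand behind a value, so the depth is unknown. FPKM summed to 363429 to 387000 per library, and 16.3% to 22.3% of low values lay near whole reads at the best step tried, against 11% to 13.7% at the median step. The log2(FPKM + 0.5) of genes averaging 1 FPKM or more over 9 libraries were fitted in limma 3.58.1 (R 4.3.3, eBayes with a variance trend, 3 group means, 6 residual and 3.56 prior degrees of freedom), with two-sided tests and Benjamini-Hochberg adjustment. Summed marker levels were compared by exact permutation. On simulated data with 100 genes changed 2-fold and 100 changed 4-fold among 9649, this procedure recovered 60% and 91%, with 3 false calls. How many of the genes called in the real libraries are false calls was not tested.

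The 94 gene families were written as symbol patterns or lists; they, the comparison and the tests were chosen with earlier results of these data known, so they are described by counts and medians without tests of their own. Named genes are the 15 smallest p and the 15 largest changes per direction at 5 FPKM or more, and per family up to 8 called and 2 abundant uncalled members; a selection of these is printed, mostly calls that held with each library left out. Cd74, Crot, H2-D1, Ncl, Nop2, Nop58, Rrn3, Sco2, Tbk1, Zbtb20, Zfp143 and Zfp445 fall outside it and were chosen after their values were seen. Replicate numbers recur in the groups, but over 9 same-numbered pairs the correlation of residuals ran from -0.137 to 0.0653, so the numbers were not taken to pair libraries. The alternatives changed the pseudocount (0.1 or 1), the filter (none, or a mean of 5 FPKM) or the scaling (median of ratios, quantiles), or used the 6 libraries alone, robust estimation, a replicate block, the description number as a term, a 2-fold minimum, and leaving out each library. Tables of unannotated loci and of the IPO comparisons were not used here, and some genes and groups are not reported here.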

Additional observations from a re-analysis of the deposited data

How the results depend on the processing

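Pseudocounts of 0.1 and 1, no filter, both other scalings and robust estimation kept the counts within 1.5 times of 372 higher and 737 lower. A mean of at least 5 FPKM gave 232 and 418, from fewer genes tested. A 2-fold minimum gave 143 and 236 by construction, the 6 libraries alone gave 118 and 223, and the description number as a term gave 56 and 130. With 1 library left out the counts ran from 100 to 467 higher and from 210 to 894 lower. With replicate number as a block, which the residuals do not show to be a pairing, they were 212 and 434. The causes were not tested. No called gene changed sign in a setting that tested it, which for the 1105 without overlap had to hold whenever libraries were left out. The mean of at least 5 FPKM tested 652 of the 1109, and all 652 kept an unadjusted limma p below 0.05. In the other settings, the description number aside, all 1109 did. Of the 103 genes named with values, at most 8 lost their call in any single setting, the description number aside. Some of the 103 were never called and could not lose a call. The rest were mostly chosen because they held with each library left out, so these small losses largely follow from that choice. Of all 1109 calls, 298 were kept without sham replicate 2, 309 without sham replicate 1 and 336 with the 6 libraries alone. Of the genes not called, Ncl ran from -0.03 to 0.07, Npm1 from -0.02 to 0.16 and Zfp36l1 from -0.37 to 0.03 with 1 library left out, so their direction is not fixed. Since depth is unknown, small changes of genes near 1 FPKM cannot be separated from counting error.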

Other observations

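Several of the smallest p in the comparison belong to genes outside the families. Rsrp1, which encodes an arginine and serine rich protein, was at 20.0, 20.3 and 20.5 FPKM in sham and 5.04, 4.86 and 6.86 in IR (log2 change -1.79 ± 0.14, adjusted p = 0.000328), with all 3 sham libraries within 1 FPKM of each other. Tmem87b, a Golgi membrane protein, was at 18.8, 16.6 and 11.7 FPKM in sham and 2.29, 3.61 and 3.77 in IR (log2 change -2.12 ± 0.21, adjusted p = 0.00122). Scara5, a ferritin scavenger receptor, was at 13.8, 14.8 and 6.96 FPKM in sham and 0.895, 0.726 and 2.92 in IR (log2 change -2.71 ± 0.39, adjusted p = 0.0046). In the other direction, Adck3, a kinase-like protein of coenzyme Q synthesis, was at 13.5, 10.2 and 14.7 FPKM in sham and 37, 47.5 and 32.3 in IR (log2 change 1.56 ± 0.18, adjusted p = 0.0018), and Psen2, a catalytic subunit of gamma-secretase, at 12.7, 15.8 and 17.1 FPKM in sham and 32, 29.8 and 32.8 in IR (log2 change 1.04 ± 0.13, adjusted p = 0.00281). Btbd19 was at 0.377, 0.375 and 0.86 FPKM in sham and 12.8, 4.4 and 4.17 in IR (log2 change 2.73 ± 0.42, adjusted p = 0.00624), with IR replicate 1 about 3 times the other IR libraries. All 6 calls were stable.

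Of the other motifs searched, none stood further from its share of all promoters among the called genes than TTCNNNGAA. The cyclic AMP element TGACGTCA stood in 3.5% of promoters of genes that rose, 2.88% of those that fell and 3.09% of all. The AP-1 site TGANTCA stood in 5.5%, 5.33% and 5.26%. The heat shock letters GAANNTTC stood in 5.5%, 5.76% and 5.9%, and the kappa B motif in 1.5%, 1.73% and 1.65%. These shares carry no test.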
